A study of Mus musculus with 8 samples.

Results

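The genes described here are 9 neuronal microtubule-associated protein genes, Mapt, Map2, Map1a, Map1b, Map4, Dcx, Dclk1, Eml1 and Clasp2. They were chosen by name, and all 9 were found among the 15598, 15598 and 15489 genes of the 3 expression tables, Map1a, Map1b, Map2 and Map4 under their older symbols beginning with Mtap. In the 3 tables of cassette exons, 5 of the 9 genes had a listed exon, with 6 different exons of 551 in all. By table, 3, 3 and 4 of the 9 genes had one, beside 202, 146 and 292 genes in all. The 9 genes were chosen with earlier results of these data known, so these counts do not set them apart. The samples were cultured mouse hippocampal neurons, collected at 14 days in vitro, 8 in all and 2 in each of 4 groups. All groups received an adeno-associated virus (AAV2/9) with the SynI promoter at day 9 and siRNA from day 10 for 4 days. The control group carried EGFP with Non-targeting siRNAs. The knockdown group carried EGFP with siRNAs against Rbfox1 and Rbfox3. Both rescue groups carried the knockdown siRNAs together with a Flag-tagged Rbfox1 isoform, Flag-Rbfox1_C or Flag-Rbfox1_N, termed siMt in the labels and called the cytoplasmic and the nuclear rescue here. The comparisons ask how RNA levels and exon use differ without Rbfox1 and Rbfox3, and how far either splice isoform of Rbfox1 returns them.

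Microtubules are hollow tubulin polymers that carry transport and give axons and dendrites their shape. Microtubule-associated proteins bind along the polymer or at its ends and stabilise it, bundle it or link it to other structures. Tau, the product of Mapt, is best known in axons, and the product of Map2 in dendrites. Map1a and Map1b encode large proteins that are cleaved into heavy and light chains, and Map4 is the broadly expressed relative of Mapt and Map2. Dcx encodes doublecortin, a marker of young migrating neurons, and Dclk1 encodes a doublecortin-like protein with a kinase domain. Eml1 encodes an echinoderm microtubule-associated protein-like protein, and Clasp2 a protein that tracks and stabilises growing microtubule plus ends. Several of these genes are spliced differently as neurons mature. Rbfox proteins are RNA-binding regulators of neuronal splicing.

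Of the 6 exons 5 are printed, because the splicing results turn on them. Each of the 6 was matched to a GENCODE M21 transcript (build GRCm38) by its length and by the lengths of both neighbouring introns. Capitals mark the cassette exon, and small letters mark 15 bases of the exon before it and of the exon after it. For the long Map2 exon the first 45 bases follow the 15 bases of the exon before it.
Eml1 51 nt: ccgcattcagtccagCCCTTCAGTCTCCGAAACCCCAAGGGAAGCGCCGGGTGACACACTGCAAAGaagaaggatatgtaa
Dclk1 74 nt: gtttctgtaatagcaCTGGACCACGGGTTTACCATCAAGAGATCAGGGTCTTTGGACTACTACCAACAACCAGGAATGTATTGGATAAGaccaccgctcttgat
Mapt 87 nt: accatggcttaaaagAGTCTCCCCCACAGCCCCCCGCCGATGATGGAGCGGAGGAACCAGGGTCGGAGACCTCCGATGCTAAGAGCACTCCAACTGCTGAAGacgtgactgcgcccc
Map2 3741 nt: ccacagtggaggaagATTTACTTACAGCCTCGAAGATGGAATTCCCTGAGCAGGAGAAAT
Clasp2 27 nt: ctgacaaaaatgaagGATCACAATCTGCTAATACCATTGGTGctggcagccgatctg
When the Eml1 exon is skipped, the flanks join as ccgcattcagtccagaagaaggatatgtaa, and when the Dclk1 exon is skipped they join as gtttctgtaatagcaaccaccgctcttgat.

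All 6 exons lie in coding sequence in the matched transcripts. Lengths of 51, 87, 93, 27 and 3741 nt are multiples of 3 and keep the reading frame, and 74 nt in Dclk1 is not. A length divisible by 3 was found for 57.5% of all exons listed in the knockdown table, 54.7% in the cytoplasmic table and 65.7% in the nuclear table. Skipping transcripts that join the flanks directly are annotated for the Eml1 exon (4 transcripts) and the Dclk1 exon (4 transcripts). None is annotated for the Mapt, Map2 and Clasp2 exons. Around the Map2 exon 7 transcripts, around the Mapt 87-nt exon 5 and around the Clasp2 exon 4 pass over the cassette exon and a flanking exon together.

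Levels are given as FPKM, a read level normalised for transcript length and library size. The authors give 1 FPKM per group, with its 2 samples already combined, so the spread between samples and the sequencing depth are unknown. A gene is called when the authors' q is below 0.05. The implied error is the authors' log2 fold change divided by their test statistic, taken without sign, and is not a measured spread. For no gene did the deposited statistic have the sign of the fold change, and directions given here are those of the fold change. Rbfox1 measured 25.7, 1.94, 16.1 and 38.2 FPKM in control, knockdown, cytoplasmic and nuclear rescue, and Rbfox3 12.4, 1.59, 1.59 and 1.53. Rbfox2, which no siRNA targeted, measured 35.4, 42.1, 33.2 and 17.7 FPKM and was lowest in the nuclear rescue. Markers of other cells were present too: 3 of 10 oligodendrocyte markers were called higher and 3 of 7 microglia markers lower in the knockdown, and no astrocyte marker of 7 was called, against 0.776% of all genes called higher and 1.58% lower. Their part in the results on the 9 genes was not tested. The knockdown group is the baseline of both rescue comparisons, so a high or low value in it moves all 3 comparisons.

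The FPKM of the 9 genes ran from 8.81 to 149.5 over all groups. Map2 was highest in control at 145 FPKM, followed by Dclk1, Mapt, Clasp2, Map4 and Map1b. Eml1, Map1a and Dcx formed a lower set, with control FPKM of 12.1, 9.79 and 9.31. Over the 4 groups Dclk1 ranged from 89.6 to 110.3 FPKM and Mapt from 85.1 to 93.9, so these neighbours overlapped. The ranges of Eml1 (11.4 to 12.1), Map1a (8.81 to 12.1) and Dcx (9.31 to 14.8) also overlapped. Those of Clasp2, Map4 and Map1b did not overlap with each other.

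**Figure D1:**
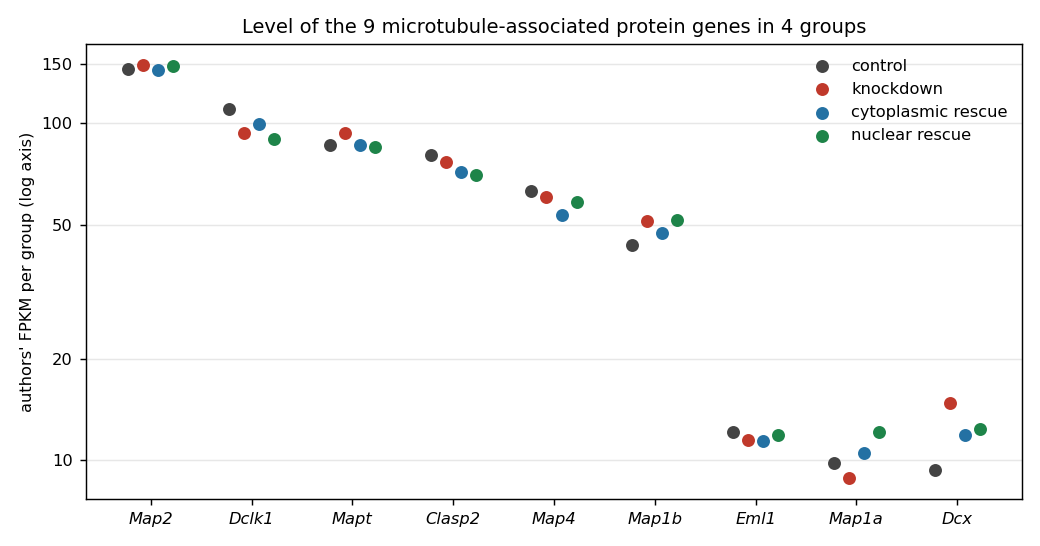
FPKM per group (log axis) of the 9 genes, ordered by control level; each point is the authors' value for the 2 samples of a group, so no error bar is drawn. Dcx is the gene with the widest spacing, from 9.31 in control to 14.8 in the knockdown, and the 4 points of Map2 lie between 144 and 149.5.

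Dcx was the 1 gene of the 9 called in the knockdown, where 2.35% of all 15598 genes were called (0.776% higher and 1.58% lower). Doublecortin RNA measured 9.31 FPKM in control, 14.8 in the knockdown, 11.8 in the cytoplasmic rescue and 12.3 in the nuclear rescue. Control was thus the lowest and the knockdown the highest group, with both rescues between them. By log2 fold change Dcx rose by 0.66 in the knockdown in the authors' deposited table (implied error 0.139, q = 0.000506), and it ranked 139th of all genes by p. The gene lies on chromosome X from 140290385 to 140367762 (mm9, as all positions except those of GENCODE). In the authors' deposited table of the cytoplasmic rescue Dcx was lower than in the knockdown by a log2 change of -0.32 (unadjusted p = 0.0376, q = 0.697). For the nuclear rescue the authors' deposited table gives -0.26 (unadjusted p = 0.110). Neither change was called, and Dcx remained at 127% and 132% of its control FPKM in the rescues, a difference that no deposited table tests.

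No marker of dividing and immature cells was called in the knockdown. Of 9 such genes 8 were measured in that table, none at 0, and 7 of the 8 lay above 0 and 1 below, with a median log2 change of 0.24, against 0.02 over all genes. Their summed FPKM was 135 in control, 155 in the knockdown, 148 in the cytoplasmic and 153 in the nuclear rescue. Of 7 pan-neuronal markers none was called or at 0, and their summed FPKM was 1774 in control and 1672 in the knockdown. In the knockdown 3 of them lay above 0 and 4 below, with a median log2 change of -0.14. Among the 3 above 0 were Tubb3 (291 FPKM in control and 408 in the knockdown) and Stmn2 (220 and 267). These encode a tubulin and a stathmin, so the sum is not free of microtubule genes. More cells of a type and more RNA per cell cannot be told apart in bulk samples, and the part of these markers in the Dcx result was not tested. The 3 genes whose ratios to control over the other 3 groups were nearest to those of Dcx were Rnd3, 2310003H01Rik and Htr5b, among 12092 genes with at least 1 FPKM in every group. Rnd3 measured 10.3, 16.3, 13.4 and 14.3 FPKM in control, knockdown, cytoplasmic and nuclear rescue, at a Euclidean distance of 0.0798 on the log2 scale.

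The other 8 genes were not called in the knockdown. Their log2 changes ran from -0.24 for Dclk1 to 0.24 for Map1b. Dclk1 (chromosome 3, 55046448 to 55342990) measured 110.3 FPKM in control, 93.4 in the knockdown, 99.3 in the cytoplasmic and 89.6 in the nuclear rescue. Control was its highest group. Map1b (chromosome 13, 100191419 to 100286557) was at 43.6, 51.4, 47.3 and 51.5 FPKM in the same order, lowest in control. In the authors' deposited table the knockdown change of Dclk1 was -0.24 with an interval of -0.67 to 0.20, taken as 1.96 times the implied error on each side. The same interval for Map1b in the authors' deposited table was -0.14 to 0.61. Both intervals hold 0.

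Mapt and Map2, the genes of the classical axonal and dendritic proteins, differed little between groups. Mapt (chromosome 11, 104092750 to 104193407) measured 86.0 FPKM in control, 93.9 in the knockdown, 86.6 in the cytoplasmic and 85.1 in the nuclear rescue. Its highest and lowest groups differed 1.10-fold. In the authors' deposited table its knockdown change was 0.13 with an interval of -0.23 to 0.49. Map2 (chromosome 1, 66221903 to 66489157) measured 145, 149.5, 144 and 149 FPKM in the same order, 1.04-fold between extremes. The authors' deposited table gives Map2 a knockdown change of 0.04 with an interval of -0.39 to 0.47. An uncalled change with such an interval does not show that the level was the same. Idh2, BC027231 and Echdc2 had the ratios to control nearest to those of Mapt, Idh2 at 55.8, 61.0, 56.2 and 55.5 FPKM with a distance of 0.00797.

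Clasp2 and Map4 were highest in control. Clasp2 (chromosome 9, 113650591 to 113828815) measured 80.3, 76.7, 71.8 and 70.5 FPKM in control, knockdown, cytoplasmic and nuclear rescue. Map4 (chromosome 9, 109834278 to 109986458) measured 62.9, 60.3, 53.5 and 58.6 FPKM. Eml1 (chromosome 12, 109648865 to 109940516) stayed within 11.4 to 12.1 FPKM, although its exon had the largest inclusion difference of the 6. None of these 3 genes had an unadjusted p below 0.05 in any of the authors' deposited tables.

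**Figure D2:**
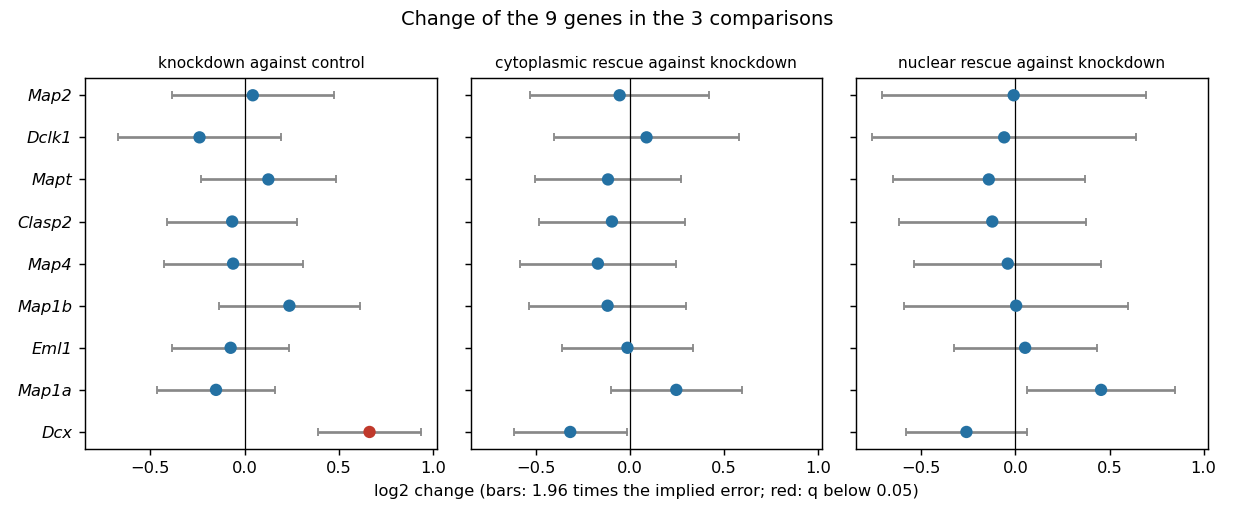
Log2 change of each gene in the 3 comparisons (x axis), with bars of 1.96 times the implied error; red marks q below 0.05 in the authors' deposited tables. Dcx in the knockdown is the 1 red point, and the bars of Dcx in the cytoplasmic and of Map1a in the nuclear rescue are the others that leave out 0.

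None of the 9 genes was called in either rescue by the authors' Cufflinks test, where 0.506% (cytoplasmic; 0.333% higher) and 0.11% (nuclear) of all genes were. At an unadjusted p below 0.05 there was 1 of 9 in each, Dcx in the cytoplasmic and Map1a in the nuclear rescue, against 5.33% and 1.05% of all genes. Map1a (chromosome 2, 121115338 to 121176749) measured 9.79 FPKM in control, 8.81 in the knockdown, 10.4 in the cytoplasmic and 12.1 in the nuclear rescue. The knockdown was its lowest group and the nuclear rescue, at 123% of control, its highest. In the authors' deposited table the change of Map1a in the nuclear rescue was 0.46 with an interval of 0.06 to 0.85 (unadjusted p = 0.0239, q = 0.562). The cytoplasmic rescue and the nuclear rescue were compared by a z test on the difference of their log2 changes, adjusted by the Benjamini-Hochberg method over 15365 genes, of which 0.026% were called and 0.794% had an unadjusted p below 0.05. By this z test none of the 9 genes was called or had an unadjusted p below 0.05. Map1a had the smallest unadjusted p, 0.436 (difference 0.21, interval -0.32 to 0.74).

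The authors' inclusion fraction estimates the share of transcripts that hold an exon. The junction share is computed here from the reads on the exon-exon junctions, with inclusion reads divided by 2 because an included exon has 2 junctions. Junction reads of the 6 exons numbered 138 to 4048 in a group. Intervals are 95% Wilson intervals and, like the tests on reads, cover counting error only. These tests compare the combined libraries of the groups, not the spread between samples. Only exons with an inclusion difference of at least 0.1 in these same libraries are listed, so a junction test is no independent evidence of a difference.

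The Eml1 exon (chromosome 12, 109741393 to 109741443, plus strand, exon 6 of 23 in transcript Eml1-202) is listed in all 3 tables. Its inclusion fraction was 0.307 in control, 0.125 in the knockdown, 0.270 in the cytoplasmic and 0.470 in the nuclear rescue. Junction shares stood in the same order, at 36.0% (27.6 to 45.9), 14.9% (10.1 to 22.4), 32.2% (24.3 to 41.2) and 52.0% (43.3 to 60.6). The knockdown was thus lowest, control and cytoplasmic rescue overlapped, and the nuclear rescue was highest. Inclusion of the exon fell in the knockdown, with 73 inclusion and 65 skipping reads in control and 39 and 111 in the knockdown (Fisher's exact test, two-sided, adjusted p = 3.07e-05 over 214 exons). It rose in the cytoplasmic rescue, to 74 and 78 reads (Fisher's exact test, adjusted p = 0.000405 over 150 exons). A larger rise was seen in the nuclear rescue, to 130 and 60 reads (Fisher's exact test, adjusted p = 3.29e-14 over 318 exons). Coverage of the exon, as a percentage of the mean of both flanking exons, was 51.5, 22.8, 44.3 and 70.6 in the same order of groups. By size of the authors' inclusion difference, Eml1 ranked 8th of the 318 exons of the nuclear table.

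Between rescues, the Eml1 exon was 19.8 percentage points higher in the nuclear than in the cytoplasmic group (Fisher's exact test, adjusted p = 0.00113 over the 45 exons that both rescue tables list, of which 31.1% passed). Against control, the cytoplasmic rescue differed by -3.79 points, which did not pass (Fisher's exact test, adjusted p = 0.892 over 48 exons, of which 6.25% passed). All exons compared here were listed for a difference of at least 0.1 from the same knockdown group. A high or low knockdown value can therefore make the compared groups look alike. The nuclear rescue was 16.0 points above control (Fisher's exact test, adjusted p = 0.0366 over 65 exons, of which 16.9% passed), and this did not pass with inclusion reads divided by 2 (adjusted p = 0.133). Rbfox1 FPKM was also higher in the nuclear (38.2) than in the cytoplasmic rescue (16.1), and Rbfox2 lower (17.7 and 33.2), so isoform and amount cannot be told apart.

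The Dclk1 exon (chromosome 3, 55325772 to 55325845, plus strand, exon 13 of 14 in Dclk1-202) moved the other way. It lies just before the last exon, and its 74 nt shift the reading frame of what follows. The inclusion fraction was 0.509 in the knockdown, 0.390 in the cytoplasmic and 0.363 in the nuclear rescue. Junction shares were 50.4% (48.1 to 52.7), 44.2% (42.0 to 46.5) and 40.7% (38.4 to 43.0), so the knockdown did not overlap with either rescue. Inclusion fell in the cytoplasmic rescue, from 1834 inclusion and 904 skipping reads to 1693 and 1067 (Fisher's exact test, adjusted p = 0.000115). It fell in the nuclear rescue too, to 1410 and 1027 reads (Fisher's exact test, adjusted p = 8.53e-11). Coverage of the exon against its flanks went from 75.5% to 65.2% and 61.1%. The nuclear minus the cytoplasmic share was -3.53 points (Fisher's exact test, adjusted p = 0.0394), which did not pass with inclusion reads divided by 2 (adjusted p = 0.0956). Control is not listed for this exon, so its level there was not analysed here.

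The Mapt 93-nt exon is listed in the nuclear table alone. Its inclusion fraction was 0.914 in the knockdown and 0.709 in the nuclear rescue. Inclusion reads went from 1977 to 1515 and skipping reads from 57 to 215, and the junction share from 94.5% (93.0 to 95.8) to 77.9% (75.2 to 80.4). The exon was thus less included in the nuclear rescue than in the knockdown (Fisher's exact test, adjusted p = 1.50e-29), ranking 16th of 318 by p. As for the Eml1 exon, isoform and amount cannot be told apart. Upstream and downstream junctions gave like values, 93.5% and 95.3% in the knockdown and 74.9% and 80.2% in the nuclear rescue. Coverage against the flanks went from 118% to 98.9%. The FPKM of the gene was 93.9 and 85.1 in these groups, a difference that was not called.

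The Mapt 87-nt exon (chromosome 11, 104148437 to 104148523, plus strand) is exon 2 of 13 in Mapt-203 and encodes part of the N-terminal projection of tau. It is listed in the knockdown table alone, with fractions of 0.325 in control and 0.185 in the knockdown. The junction shares were far higher, 85.0% (78.7 to 89.7) and 74.7% (67.2 to 81.2), and these intervals overlapped. Inclusion reads went from 272 to 219 and skipping reads from 24 to 37 (Fisher's exact test, adjusted p = 0.0483), which did not pass with inclusion reads divided by 2 (adjusted p = 0.0794). Only reads that join the 3 exons of the event enter the junction share, whereas transcripts that leave out this exon and the next do not. Coverage was 1131 on the exon before, 263 on the cassette exon and 125 on the exon after in control, and 1418, 186 and 98.3 in the knockdown. Relative to the exon before, the cassette exon went from 23.3% to 13.1% and the exon after it from 11.1% to 6.93%, so both of the adjoining 87-nt exons were lower together, without a test.

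The Map2 exon (chromosome 1, 66458981 to 66462721, plus strand, exon 7 of 15 in Map2-204) is the long exon known to set apart the high-molecular-weight forms of the protein. Its fraction was 0.846 in control, 0.981 in the knockdown and 0.858 in the cytoplasmic rescue. Junction reads did not follow these values. Shares were 98.3% (97.6 to 98.8), 98.4% (97.7 to 98.8) and 98.7% (98.1 to 99.1), with 31, 33 and 26 skipping reads beside 3666, 3992 and 4022 inclusion reads. No difference was detected in the knockdown (Fisher's exact test, adjusted p = 1) or in the cytoplasmic rescue (Fisher's exact test, adjusted p = 0.416). Coverage of the exon against its flanks was 93.8%, 92.4% and 93.8%. The authors' change of inclusion was thus not seen in the junctions of the event or in coverage against the mean of both flanks. Transcripts that leave out this exon and a flanking exon together do not enter the junction share, and the flank mean can miss them. Relative to the exon before alone, the cassette exon was at 81.7%, 77.2% and 78.0% in control, knockdown and cytoplasmic rescue. The exon after it was at 74.4%, 67.1% and 66.3%, without a test.

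The Clasp2 exon (chromosome 9, 113774204 to 113774230, plus strand, exon 17 of 35 in Clasp2-207) follows another exon of 27 nt. In the nuclear table its fraction was 0.199 in the knockdown and 0.317 in the nuclear rescue. The junction share was 52.4% (44.8 to 59.9) and 54.6% (48.7 to 60.5), and no difference was detected (Fisher's exact test, adjusted p = 0.625). Reads on the junction into the exon went from 65 to 102, on the junction out of it from 109 to 192, and on the skipping junction from 79 to 122, so all 3 were higher. Coverage of the exon after it was 1304 and 1296. Against that exon, the preceding 27-nt exon went from 20.4% to 32.0% and the cassette exon from 35.4% to 56.6%, both higher together. As for the Mapt 87-nt exon, the neighbour moved with the cassette exon, and the junction share of the event does not record that.

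**Figure D3:**
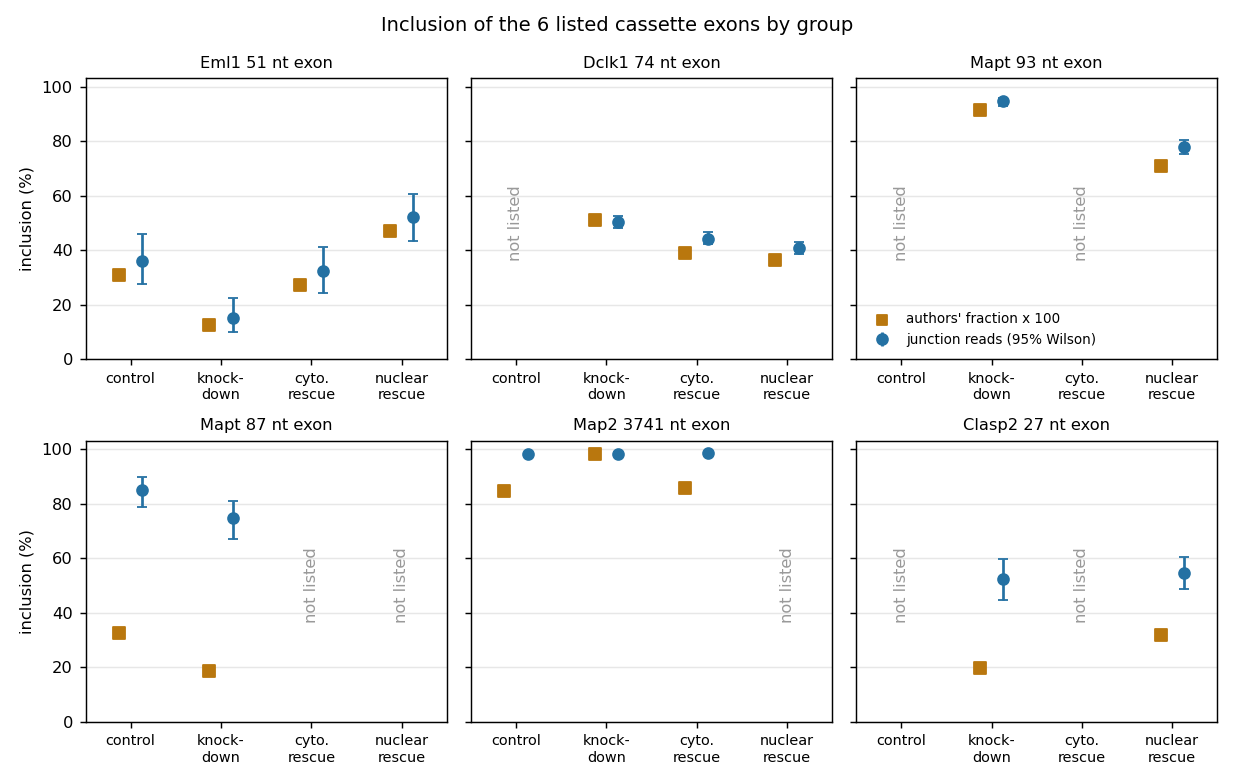
Inclusion (%) of the 6 exons by group: squares are the authors' fraction times 100, circles the junction share with its 95% Wilson interval, and "not listed" marks groups without a value in the tables. For Eml1 every square lies within the interval. Squares lie below the interval for Dclk1 in both rescues and for the Mapt 93-nt exon in both of its groups. For the Mapt 87-nt, Map2 and Clasp2 exons the measures lie further apart in at least 1 group.

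By the junction test 2 of 3 exons passed in the knockdown, 2 of 3 in the cytoplasmic and 3 of 4 in the nuclear table. The shares over all listed exons were 42.5%, 33.3% and 59.4%, so counts this small do not set these genes apart. The authors' fraction lay over 0.2 from the junction share for 1 exon in the knockdown table (Mapt 87 nt) and 1 in the nuclear table (Clasp2), as it did for 13.1% and 10.1% of all listed exons.

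Other genes of the microtubule system were taken from 9 lists of 110 genes, of which 106 were measured in the knockdown table. Called were 1 higher gene (Stmn1) and 1 lower (Ttll7), 1.89% against 2.35% of all genes. Stmn1, which encodes the microtubule-destabilising protein stathmin, rose from 257 to 436 FPKM and stood at 352 and 382 in the cytoplasmic and nuclear rescue. The authors' deposited table gives it a log2 fold change of 0.76 (implied error 0.167, q = 0.00113). Ttll7, a tubulin polyglutamylase gene, measured 35.5 FPKM in control and 24.9 in the knockdown, and fell by 0.51 on the log2 scale (q = 0.0224) in the authors' deposited table. Its call was lost at q below 0.01. In all, 76 of the 106 lay above 0, with a median of 0.09 against 0.02 over all genes. The share of all genes above 0 was not counted. Tubulins had 11 of 14 above 0 and none called. Their summed FPKM was 4925 in control, 6502 in the knockdown, 5626 in the cytoplasmic and 6111 in the nuclear rescue. Tuba1a alone held 2046 of this sum in control and 2995 in the knockdown. Plus and minus end proteins had 18 of 22 above 0 in the knockdown and none called. Kinases and phosphatases of these proteins had 11 of 19 above 0, with a median of 0.02.

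In the cytoplasmic rescue 1 of 105 measured genes of these lists was called, 0.952% against 0.506% of all genes. This was Clip3, a gene of a CAP-Gly domain linker protein, at 2.60 FPKM in the knockdown and 4.28 in the rescue (log2 fold change 0.72, q = 0.00262 in the authors' deposited table). Its control level was 2.64 FPKM. In the nuclear rescue none of 106 was called in the authors' deposited table, against 0.11% of all genes, with Clip3 at 3.58 FPKM (q = 0.218). Of the 2 most abundant genes of each list in control, Stmn1 and Ttll7 were called in the knockdown and the others were not. The others included Tuba1a (2046 FPKM in control and 2995 in the knockdown) and Tubb2a among tubulins, and Stmn3 (730.4 and 750.2) among stathmins. They also included Fez1 (288 and 268) and Tppp in a list of other microtubule-related proteins, and Pafah1b1 (132 and 133) and Ppp1r9b among doublecortin partners. In the other lists they included Eml2 (51.0 and 58.3) and Eml4 of the EML family, Ckap5 and Clip2 among end proteins, Spast among severing enzymes, Agtpbp1 (60.5 and 54.6) among tubulin modifying enzymes, and Ppp2r2c and Ppp2r2b among phosphatase subunits. For Tuba1a the implied error was 0.592, wider than its log2 change of 0.55 in the authors' deposited table.

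**Figure D4:**
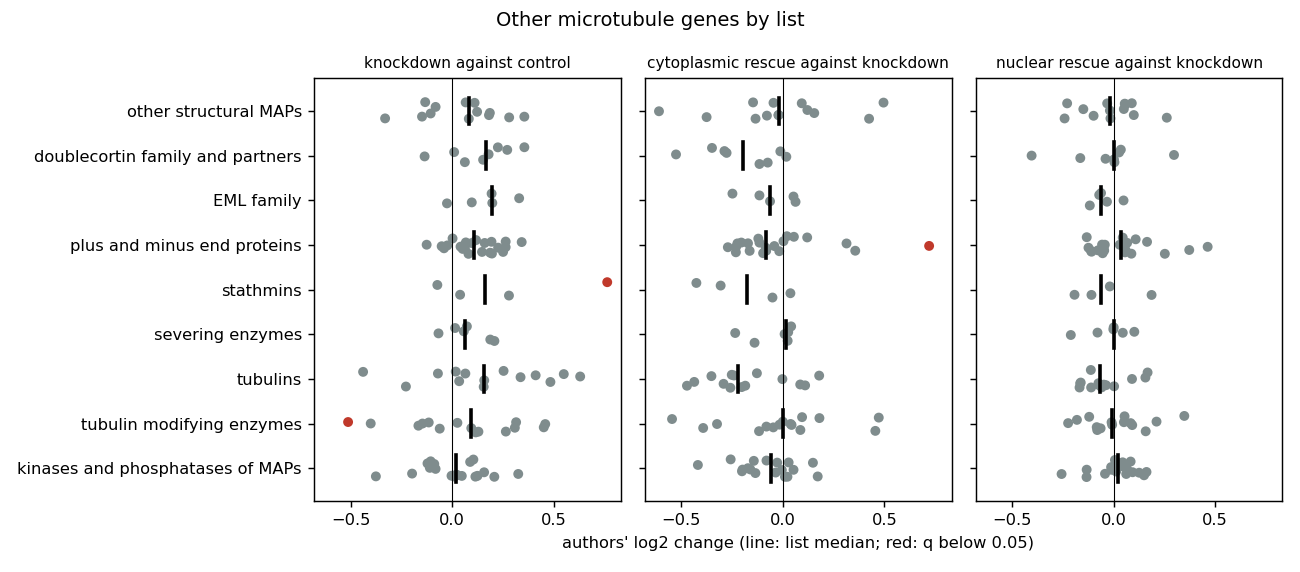
Log2 change (x axis) of each gene of 9 microtubule gene lists in the 3 comparisons; black lines are list medians and red marks q below 0.05 in the authors' deposited tables. Red points are Stmn1 and Ttll7 in the knockdown and Clip3 in the cytoplasmic rescue, and the nuclear panel has none.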

How the data were processed

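The submitters' processing notes name CASAVA, Cufflinks and build mm9; no version is given in the sources used here. Per the labels' protocols, libraries were ribosomal RNA-depleted, without strand information, and read as pairs of 50 nt. The authors deposited FPKM values, log2 fold changes, a test statistic, p-values and q-values for 3 pairs of groups. Their splicing tables, made with SpliceTrap per the file names, give a deposited inclusion fraction, a difference score, p-values, junction read counts and exon coverage signal per group. A further 30 value columns were not used here. Locus starts were counted from 0, since 3616 spans then equalled the RefSeq length and 321 otherwise; printed starts count from 1. The deposited p-value matched the two-sided normal tail of the statistic. The deposited q was not the Benjamini-Hochberg value over the genes of 1 table. Recomputed so, q below 0.05 held for 481 genes instead of 367 in the knockdown and 49 instead of 79 in the cytoplasmic rescue. For Map1a in the nuclear rescue it was 0.999983 instead of 0.562. Values per library were not in these tables, so the authors' calls (q below 0.05) are used. The z test between rescues counts the shared knockdown error in each table. Fisher's exact test compared inclusion with skipping reads, both inclusion junctions summed, so a read pair may count on both. Both tests were tried on simulated data with independent draws. Those draws leave out the shared knockdown group and read pairs that count on both junctions, so the effect of these was not tested. Tools were Python 3.11.15, pandas 2.3.3 and SciPy 1.17.1. Nothing in the labels says whether samples of a group were separate cultures. The members and lists were chosen with earlier results of these data known. Named were all 9 genes, their listed exons, called list genes with abundant ones beside them, list exons that passed the junction test, and 3 nearest genes for Dcx and Mapt. The comparisons of exons between rescues and against control were chosen after the data were seen. The sequence of 1 exon and a few list members are not reported here.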

Additional observations from a re-analysis of the deposited data

Results flagged for a closer look

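The Eml1 51-nt exon differed between the rescues, with a junction share 19.8 percentage points higher in the nuclear than in the cytoplasmic group (Fisher's exact test, adjusted p = 0.00113), and it also passed with inclusion reads divided by 2 (adjusted p = 0.0116). The Dclk1 74-nt exon differed between the rescues by -3.53 points, nuclear minus cytoplasmic (Fisher's exact test, adjusted p = 0.0394), and did not pass with inclusion reads divided by 2 (adjusted p = 0.0956).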

How the results depend on the processing

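No paired analysis was possible because the tables hold 1 value per group, and for the same reason no sample could be left out. The call of Dcx in the knockdown held under all 4 alternatives tried, although at its level it could not fail the minimum of 1 FPKM in a group. For uncalled genes only q recomputed in the table alone could add a call, because the other alternatives tighten the rule. It added no call among the 9 genes in any table. Over all genes, calls went from 367 to 238 (q below 0.01) and 217 (minimum change of 0.5 in log2(FPKM + 1)) in the knockdown, and to 481 with q recomputed in the table alone. In the cytoplasmic rescue they went from 79 to 41, 48 and 49 under these settings, in the same order. The z test between rescues called 4 genes, and 26 with the larger error alone, none of them among the 9. Exons passing the junction test went from 91 to 54 (knockdown) and from 50 to 26 (cytoplasmic) at an adjusted p below 0.01, and from 50 to 31 in the cytoplasmic table with inclusion reads divided by 2. The Map2 exon change in the cytoplasmic rescue turned from -0.123 in the authors' fraction to 0.0035 in the junction share, and the cause was not tested. The Dclk1 change shrank likewise from -0.119 to -0.0612 in the cytoplasmic and from -0.146 to -0.0965 in the nuclear rescue. That of the Mapt 93-nt exon shrank from -0.205 to -0.167 and that of Clasp2 from 0.118 to 0.0224, whereas the Eml1 change was larger in the junction share in each comparison. By Fisher's exact test the Mapt 87-nt call (adjusted p = 0.0483) was lost with inclusion reads divided by 2 (0.0794) and at 0.01, and the Ttll7 call (q = 0.0224) at 0.01 and with the minimum change. Among the 6 exons the fewest junction reads were the 138 of the Eml1 exon in control.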

Other observations

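Exons of other microtubule genes were listed too, 4 in the knockdown, 2 in the cytoplasmic and 10 in the nuclear table, of which 1, 1 and 6 passed the junction test (42.5%, 33.3% and 59.4% of all listed exons). In the nuclear rescue 4 of the 6 were less included than in the knockdown. These were an 18-nt exon of the spectraplakin gene Dst (93.5% to 65.9% of junction reads; Fisher's exact test, adjusted p = 1.08e-13), a 33-nt exon of the minus end protein gene Camsap1 (80.5% to 60.2%), a 42-nt exon of the neuron navigator gene Nav3 (64.2% to 34.5%) and a 105-nt exon of the plus end protein gene Clip1 (81.0% to 66.9%). A 13-nt exon of Dclk2, the close relative of Dclk1, rose from 10.5% to 23.0% (Fisher's exact test, adjusted p = 1.33e-06), and a 165-nt exon of Apc from 58.2% to 68.0%. In the knockdown a 72-nt exon of Dst fell from 65.2% to 53.6% (Fisher's exact test, adjusted p = 0.00181). The cytoplasmic call, a 27-nt exon of the kinase gene Mark2 (12.0% to 3.70%; Fisher's exact test, adjusted p = 0.0477), was lost with inclusion reads divided by 2 (adjusted p = 0.226).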
